A study of Mus musculus with 6 samples.

Results

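The genes described here are 41 markers of leukocytes, chemokines and secreted macrophage products, measured in the hearts of mice with and without Elac2. A gene was a member if its symbol in the authors' deposited table was on a fixed list of 41 symbols. The symbols match 42 entries of the 51888 in the count tables, because Itgam is entered under 2 Ensembl identifiers. By role the members are 1 gene of all leukocytes, 19 of macrophages and monocytes, 3 of granulocytes, 7 of lymphocytes, 9 chemokines and 2 secreted products of macrophages.

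Total RNA was sequenced from whole hearts of 3 knockout mice (L/L, cre in the labels, genotype Elac2 -/-) and 3 control mice (L/L, genotype Elac2 +/+), all on the C57BL/6 strain background. L/L marks the loxP-flanked Elac2 exon, which cre from the muscle creatine kinase promoter removed, so the deletion was made in muscle cells and the leukocytes of the same hearts were not its target. The controls carried no cre, so cre and the loss of Elac2 cannot be told apart, and age and sex are not given in the sources used here. Each mouse was run in several technical replicates and is 1 column of the deposited counts.

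Tissue macrophages live in the healthy heart, where they clear debris and dying cells, and depend on signals through the receptor encoded by Csf1r. Monocytes enter from blood, guided by chemokines, small secreted proteins that act on receptors of migrating cells. CCL2 and CCL7 act on CCR2, fractalkine (CX3CL1) on CX3CR1, CXCL16 on CXCR6, and CXCL12, made by stromal and endothelial cells, on CXCR4 and the scavenging receptor ACKR3. Galectin-3 (Lgals3) and osteopontin (Spp1) are secreted by macrophages, and by other cells too, in injured hearts.

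Most members were not called. Of the 27 that passed the filter on low counts, 4 rose in knockout hearts (Lgals3, Cx3cr1, Fcgr3 and Lyz2), 2 fell (Cxcl12 and Lyve1), and 21 were not called, while 14 members did not pass. The general markers of macrophages, Csf1r, Mrc1, Cd68 and the C1q genes, were not called, and lymphocyte and granulocyte genes were at or near the floor of detection. A gene was called where edgeR's quasi-likelihood test gave a Benjamini-Hochberg adjusted p under 0.05, adjusted over all 14302 genes tested. Over all tested genes 36.5% were called, 18.7% higher and 17.8% lower. The 6 called of 27 members are thus a smaller share than the background. With a filter of at least 50 counts in 3 libraries, 6 of 16 members were called, against 4420 of 10450 genes. The size of the gap therefore depends on the filter on low counts. The median log2 fold change, knockout over control, was 0.05 over the 27 tested members and -0.01 over all tested genes. In 6 of the 27 tested members every knockout library was above every control library, and in 2 of the 27 every knockout library was below, against 26.2% and 24.5% of all tested genes (50.6% in either direction).

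The libraries held 9850100 to 14461110 counts in knockout hearts and 12057962 to 14276410 in control hearts, of which the 41 members made up 4445 to 8514 in knockout hearts and 3423 to 5116 in control hearts. Features encoded in mitochondrial DNA took 33.3% to 36.7% of the counts in knockout hearts and 49.3% to 61.1% in control hearts. Levels are therefore given as CPM, counts set against a library size that TMM scaled so that the bulk of genes is level between libraries. Elac2 itself was at 5.36, 5.63 and 6.52 CPM in knockout hearts, against 15.0, 14.0 and 13.01 CPM in control hearts (log2 fold change -1.27, SE 0.15, adjusted p 2.12e-04), in the direction of the labels. Knockout replicate 1 was above its group's mean for 24 of the 27 tested members, replicate 2 for 13 and replicate 3 for 3. In control libraries 13, 16 and 15 members were above the group's mean. Nothing in the labels says that mice of a group shared a litter or a cage, and p-values measure the spread between these 6 mice.

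The 250 bases before the RefSeq start of transcription are shown for the called members that have an entry in the RefSeq promoter table (build GRCm38.p6), because these are the members whose RNA differed between the groups. They are Lgals3 (chr14:47373610-47373859, plus strand), Cx3cr1 (chr9:120068297-120068546, minus strand), Fcgr3 (chr1:171059404-171059653, minus strand, the first of 2 annotated starts), Lyz2 (chr10:117282273-117282522, minus strand) and Cxcl12 (chr6:117168285-117168534, plus strand). All read 5′ to 3′ on the strand of the gene, in lower case, with capitals marking a match to one of 6 motifs of factors active in myeloid cells.
Lgals3: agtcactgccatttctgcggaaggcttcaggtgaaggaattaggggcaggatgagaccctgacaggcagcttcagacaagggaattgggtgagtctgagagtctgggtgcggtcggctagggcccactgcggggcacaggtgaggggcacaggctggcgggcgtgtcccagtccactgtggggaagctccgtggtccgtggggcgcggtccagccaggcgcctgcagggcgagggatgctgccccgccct
Cx3cr1: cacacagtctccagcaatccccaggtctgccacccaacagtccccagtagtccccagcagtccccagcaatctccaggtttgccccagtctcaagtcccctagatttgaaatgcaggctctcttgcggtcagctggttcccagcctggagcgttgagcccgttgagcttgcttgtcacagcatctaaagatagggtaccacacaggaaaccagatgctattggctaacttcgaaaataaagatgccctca
Fcgr3: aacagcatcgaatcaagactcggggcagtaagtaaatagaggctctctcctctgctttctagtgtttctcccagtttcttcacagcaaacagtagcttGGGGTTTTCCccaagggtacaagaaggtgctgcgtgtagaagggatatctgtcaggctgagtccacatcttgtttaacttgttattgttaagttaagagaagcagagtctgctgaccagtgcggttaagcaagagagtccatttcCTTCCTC
Lyz2: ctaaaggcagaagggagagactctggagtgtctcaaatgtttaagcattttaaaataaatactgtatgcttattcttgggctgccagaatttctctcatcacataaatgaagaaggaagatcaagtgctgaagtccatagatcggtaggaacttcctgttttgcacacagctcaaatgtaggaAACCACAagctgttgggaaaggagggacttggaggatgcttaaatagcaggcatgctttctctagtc
Cxcl12: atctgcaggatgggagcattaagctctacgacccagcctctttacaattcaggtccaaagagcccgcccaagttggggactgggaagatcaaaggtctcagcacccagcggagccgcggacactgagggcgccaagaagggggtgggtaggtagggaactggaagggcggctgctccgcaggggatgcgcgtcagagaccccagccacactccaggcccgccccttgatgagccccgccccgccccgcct
The motifs searched on both strands were GAGGAAG for PU.1, TGANTCA for AP-1, TGTGGTT for RUNX, TGATGNAA for the CCAAT-enhancer and ATF families, the 10-letter NF-kB consensus and the E-box CACGTG. Over 32851 promoters of the same length they were present in 10.6%, 6.75%, 4.40%, 3.45%, 1.41% and 6.02%, in that order. Fcgr3 held the PU.1 letters on the reverse strand, 7 bases before the start, and the NF-kB letters 152 bases before it. Lyz2 held the RUNX letters on the reverse strand, 67 bases before the start. The Lgals3, Cx3cr1 and Cxcl12 windows held none of these letter strings, which says nothing of the factors themselves.

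Lgals3 (ENSMUSG00000050335.16; chr14:47367751-47386160, mm10, plus strand) encodes galectin-3, a lectin that binds beta-galactosides on cell surfaces and matrix. It was the member with the largest called change. It was measured at 30.2, 29.2 and 25.4 CPM in knockout hearts, against 3.08, 1.56 and 6.39 CPM in control hearts. Every knockout library was far above every control library, and the controls spread more widely relative to their mean. The means were 28.3 ± 2.51 CPM in knockout hearts and 3.68 ± 2.47 CPM in control hearts (SD, n = 3 each). This is 2.97 on the log2 scale (SE 0.33, 95% interval 2.23 to 3.71, adjusted p 1.60e-04), or 7.82-fold. Relative to Csf1r in the same library, Lgals3 counts stood at 0.886 ± 0.085 in knockout hearts and 0.122 ± 0.079 in control hearts.

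Spp1, which encodes osteopontin, the other secreted product, did not pass the filter. It had 20, 8 and 8 counts in knockout hearts, against 0, 3 and 1 in control hearts. The sums of 36 and 4 counts give a ratio of 5.74, scaled to library size, with an exact 95% interval of 2.06 to 22.2 that covers counting error only. All 3 knockout libraries were above all 3 control libraries. Spp1 passed the filter and was called higher without knockout replicate 2 or control replicate 2, and was called with no filter. Of the annotated Spp1 exons, 309 bases lie within another gene model on the same strand, Gm42793.

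**Figure D1:**
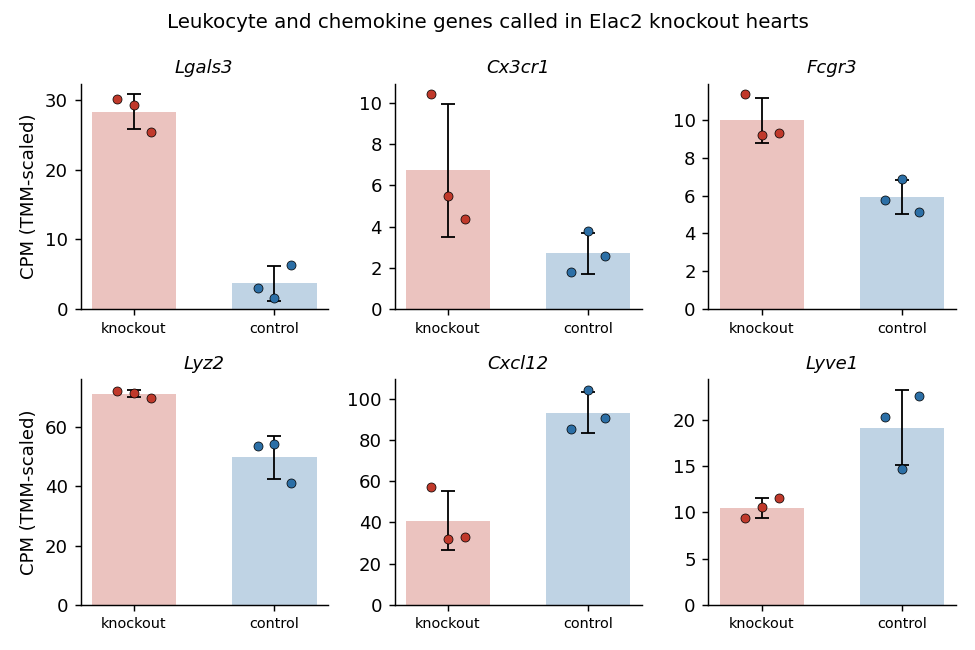
TMM-scaled CPM of the 6 called members in each library (points), with bars for the mean and lines for the SD (n = 3 per group), each panel with its own axis from 0. Lgals3, Cx3cr1, Fcgr3 and Lyz2 were higher in all 3 knockout libraries than in any control library, and Cxcl12 and Lyve1 lower.

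Among the 19 macrophage and monocyte genes, 18 passed the filter, of which 3 rose, 1 fell and 14 were not called. Their median log2 fold change was 0.06, with a range of -0.87 to 1.36. Their summed level was 321, 291 and 269 CPM in knockout hearts, against 263, 280 and 268 CPM in control hearts, so the groups overlapped. In RNA from a whole tissue, fewer cells of a type and less RNA per cell cannot be told apart.

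Cx3cr1 (ENSMUSG00000052336.7; chr9:119901616-120069879, minus strand), the fractalkine receptor of monocytes and resident macrophages, rose most within this role. It was measured at 10.4, 5.46 and 4.35 CPM in knockout hearts, against 1.81, 3.78 and 2.56 CPM in control hearts. The groups did not overlap, but the lowest knockout library was close to the highest control library. The log2 fold change was 1.36 (SE 0.37, 95% interval 0.53 to 2.19, adjusted p 0.0175), or 2.57-fold. Without control replicate 1 it was 1.11 (adjusted p 0.0886) and without control replicate 3 it was 1.34 (adjusted p 0.0646). The call thus rests on both of these libraries. With each library left out in turn, the Cx3cr1 log2 fold change lay between 0.90 and 1.68.

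Fcgr3 (ENSMUSG00000059498.13; chr1:171051174-171064935, minus strand) encodes the low-affinity activating receptor for IgG. It was at 11.4, 9.23 and 9.34 CPM in knockout hearts, against 5.79, 6.89 and 5.11 CPM in control hearts. All knockout libraries were above all control libraries, and the log2 fold change was 0.75 (SE 0.17, 95% interval 0.37 to 1.14, adjusted p 7.54e-03). Fcgr3 shares 512 bases at 96.3% identity with Fcgr2b, the inhibitory IgG receptor, so reads from these bases could be counted for either. Fcgr2b was at 4.77 ± 1.04 CPM in knockout hearts and 4.79 ± 0.704 CPM in control hearts (SD, n = 3 each) and was not called.

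Lyz2 (ENSMUSG00000069516.8; chr10:117277331-117282321, minus strand), the lysozyme gene of myeloid cells, had the highest level per length of all members in both groups. It was at 72.2, 71.7 and 69.9 CPM in knockout hearts, against 53.6, 54.3 and 41.2 CPM in control hearts. The knockout libraries lay close together and above every control library, and the log2 fold change was 0.52 (SE 0.13, 95% interval 0.23 to 0.80, adjusted p 0.0108), or 1.43-fold. Its near copy Lyz1, alike at 95.8% over 1264 bases, had 14 counts in knockout hearts and 16 in control hearts in all.

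Lyve1 (ENSMUSG00000030787.4; chr7:110850607-110863239, minus strand), a hyaluronan receptor of lymphatic endothelium and of a subset of resident macrophages, was the macrophage-role gene that fell. It was at 9.39, 10.6 and 11.5 CPM in knockout hearts, against 20.2, 14.7 and 22.5 CPM in control hearts. The groups did not overlap, and the log2 fold change was -0.87 (SE 0.17, 95% interval -1.26 to -0.48, adjusted p 3.89e-03). The summed level of 7 other lymphatic endothelial genes was 96.7 to 98.1 CPM in knockout hearts and 117 to 141 CPM in control hearts. The genes were mixed, however. Of the 7 lymphatic endothelial genes tested, Lyve1 included, 3 had a log2 fold change above 0 and 4 below. Their median was -0.02 and their highest value 0.31. Of those genes Prox1, a transcription factor of lymphatic endothelium that cardiomyocytes also express, fell too (log2 fold change -0.70, adjusted p 3.69e-03; 0.012 with library size alone), while Flt4 (-0.02) and Mmrn1 (0.06) were not called. Of 28 other macrophage genes tested that are not members, 15 had a log2 fold change above 0 and 13 below. Among them F13a1 was called lower (-0.34, adjusted p 0.0441), while Folr2 (-0.55) and Cbr2 (-0.51) were not called. These genes were picked after their values were seen. The part of lymphatic endothelium or of macrophages in the Lyve1 result was not tested. Scaled by library size alone, under which the median over all genes was 0.68, Lyve1 was at -0.18 (adjusted p 0.485), still below that median.

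Csf1r, Mrc1, C1qa, C1qb, C1qc, Cd68, Cd14 and Ptprc were not called, and each had ranges that overlapped between the groups. Csf1r, the receptor for CSF1 and IL-34, was at 38.3, 31.2 and 27.2 CPM in knockout hearts, against 24.2, 37.7 and 32.2 CPM in control hearts. These ranges overlapped almost entirely (log2 fold change 0.05, 95% interval -0.35 to 0.45, adjusted p 0.852). Csf1r shares 873 of its 5774 exonic bases with Hmgxb3 on the opposite strand. Mrc1, the mannose receptor, averaged 51.5 ± 3.19 CPM in knockout hearts and 50.1 ± 3.57 CPM in control hearts (SD, n = 3 each), with an interval of -0.20 to 0.29 around a log2 fold change of 0.04. This interval is narrower than those of the other markers of this paragraph. C1qa, C1qb and C1qc, the 3 chains of the complement component that starts the classical pathway, had log2 fold changes of 0.05, -0.09 and 0.08. Cd68, a lysosomal glycoprotein of phagocytes, had -0.23 (adjusted p 0.466), and Cd14, a co-receptor for lipopolysaccharide, -0.20 (adjusted p 0.630). Ptprc, the CD45 phosphatase of all leukocytes, was at 18.4, 11.3 and 13.5 CPM in knockout hearts, against 13.7, 14.0 and 11.7 CPM in control hearts, with a log2 fold change of 0.13 (95% interval -0.29 to 0.55, adjusted p 0.618).

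Several members missed the threshold by little or had wide intervals. Adgre1, which encodes the macrophage surface protein F4/80, was at 16.98, 13.7 and 13.3 CPM in knockout hearts, against 11.3, 12.2 and 9.76 CPM in control hearts. The groups did not overlap (log2 fold change 0.40, 95% interval 0.06 to 0.75, adjusted p 0.0653). Cd163, the scavenger receptor for haemoglobin bound to haptoglobin, averaged 13.2 ± 2.61 CPM in knockout hearts and 18.1 ± 3.34 CPM in control hearts (SD, n = 3 each; log2 fold change -0.45, adjusted p 0.0784), and was called lower without knockout replicate 3 (-0.60, adjusted p 0.0343). Tyrobp, the DAP12 signalling adaptor, was at 3.66, 3.83 and 3.46 CPM in knockout hearts, against 2.86, 3.0 and 2.67 CPM in control hearts, again without overlap (log2 fold change 0.36, adjusted p 0.184). Fcer1g, the signalling chain that Fc receptors share, had a log2 fold change of -0.50 (adjusted p 0.211), and Fcgr1, the high-affinity IgG receptor, 0.19. Itgam, the CD11b integrin chain, had 0.40 (adjusted p 0.517) under its first identifier. Its second identifier held 1 count in knockout hearts and 0 in control hearts. Of the 5024 exonic bases of the first identifier, 3450 are shared on the same strand with another gene model, Gm49368. How reads from these bases were counted is not stated, so the level of Itgam is uncertain.

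The monocyte genes Ccr2 and Ly6c2 were low, and Ccr2 varied among knockout hearts. Ccr2, the receptor by which monocytes follow CCL2, was at 6.42, 2.55 and 1.69 CPM in knockout hearts, against 2.56, 1.67 and 0.697 CPM in control hearts. Knockout replicate 1 was above all other libraries while the remaining ranges overlapped (log2 fold change 1.08, 95% interval -0.11 to 2.26, adjusted p 0.138). Without knockout replicate 1 the log2 fold change of Ccr2 was 0.32 (adjusted p 0.569), and without knockout replicate 3 it was 1.39 and called (adjusted p 0.0492). Ccr2 was also called with no filter on low counts and with the replicate number as a block. Ly6c2, a surface antigen of inflammatory monocytes in mice, had 7 counts in knockout hearts and 1 in control hearts (scaled ratio 4.46, exact 95% interval 0.573 to 201). It is alike at 97.6% over 822 bases to Ly6c1, which had 1352 counts in knockout hearts and 1034 in control hearts.

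**Figure D2:**
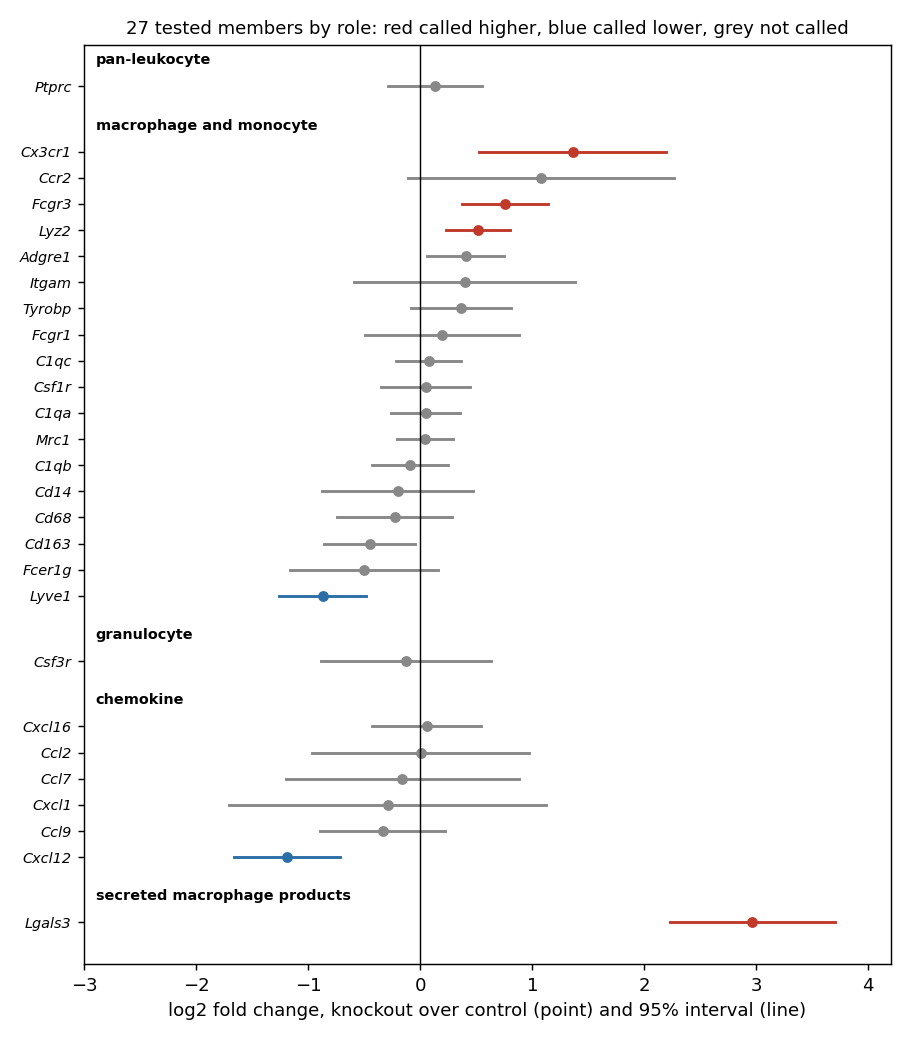
Log2 fold change, knockout over control (points), with 95% intervals (lines) for the 27 tested members, grouped by role. Intervals of 21 grey members go with no call, 4 red members were called higher and 2 blue members lower.

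Granulocyte and lymphocyte genes were detected at the level of a few reads. Csf3r, the receptor for granulocyte colony-stimulating factor, was the only one of the 10 that passed the filter. It was at 0.894 ± 0.262 CPM in knockout hearts and 0.994 ± 0.0622 CPM in control hearts (SD, n = 3 each; log2 fold change -0.13, adjusted p 0.817). Csf3r is alike at 96.8% over 1518 bases to another gene model, AC105061.2. S100a8 and S100a9, which encode the calprotectin subunits of neutrophils, had 19 and 23 counts in knockout hearts, against 10 and 11 in control hearts. Their scaled ratios were 1.21 (exact 95% interval 0.536 to 2.92) and 1.33 (0.624 to 3.03). Of the 23 S100a9 counts in knockout hearts, 15 came from replicate 3.

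For lymphocytes, Cd3e and Cd3g of the T-cell receptor complex each had 3 counts in knockout hearts, against 2 and 1 in control hearts. Cd8a, the co-receptor of cytotoxic T cells, had 6 counts in knockout hearts, all from replicate 1, against 2 in control hearts. Cd4, which is found on helper T cells and on some myeloid cells, had 35 counts in knockout hearts and 17 in control hearts (scaled ratio 1.31, exact 95% interval 0.716 to 2.50). The B-cell receptor chains Cd79a and Cd79b had 7 and 18 counts in knockout hearts, against 8 and 16 in control hearts, and Nkg7, a granule protein of cytotoxic cells, had 2 in knockout hearts and 4 in control hearts. Summed over the 7 genes this was 74 counts in knockout hearts and 50 in control hearts, with 44 of the 74 from replicate 1. None of the 7 genes passed the filter, so a difference in them was not tested, and at these counts only a large one could have been seen. Of 23 other lymphocyte genes that are not members, only Ighm, the IgM heavy chain, passed the filter, with a log2 fold change of -0.16 (adjusted p 0.696). Of 18 other genes of granulocytes and mast cells, 4 were tested and Cpa3, the mast cell carboxypeptidase, fell (log2 fold change -1.16, adjusted p 0.0214). The Cpa3 call, on 27 counts in knockout hearts and 39 in control hearts, was lost without any one library other than knockout replicate 3. It was also lost with library size alone, with no filter, in DESeq2 and in the authors' deposited table.

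Of the 9 chemokines, 6 passed the filter. None rose by the edgeR test, nor at an unadjusted p under 0.05, nor in DESeq2 or limma-voom, while 1 fell and 5 stayed uncalled. The median of their log2 fold changes was -0.23. Their summed level was 76.6, 44.2 and 45.5 CPM in knockout hearts, against 102, 119 and 108 CPM in control hearts, and most of it was Cxcl12. With library size alone 1 chemokine, Cxcl16, was called higher (log2 fold change 0.76, adjusted p 0.0130). The median of all genes under that scaling was 0.68.

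Cxcl12 (ENSMUSG00000061353.11; chr6:117168535-117181367, plus strand), the stromal chemokine that retains cells bearing CXCR4, was at 57.4, 32.1 and 32.8 CPM in knockout hearts, against 85.3, 104 and 90.5 CPM in control hearts. All knockout libraries were below all control libraries, and knockout replicate 1 stood apart from the other two. The means were 40.8 ± 14.4 CPM in knockout hearts and 93.3 ± 9.78 CPM in control hearts (SD, n = 3 each), and the log2 fold change was -1.19 (SE 0.21, 95% interval -1.67 to -0.72, adjusted p 2.12e-03). Scaled by library size alone it was -0.48 (adjusted p 0.0684), against the 0.68 median of all genes under that scaling. The summed level of 11 blood endothelial genes was 676 to 796 CPM in knockout hearts and 935 to 1047 CPM in control hearts, with 6 of the 11 called lower. With library size alone 0 were lower and 3 were higher. The count of lower genes was 3 without knockout replicate 2 and 2 without control replicate 2. The sum of 10 smooth muscle and pericyte genes was 751 to 811 CPM in knockout hearts and 1179 to 1452 CPM in control hearts. These genes were mixed, with 3 called lower, 2 called higher and log2 fold changes from -1.65 to 1.41. With each library left out in turn, 2 to 4 of them were lower and 1 to 3 higher, and with library size alone 1 was lower. The sum of 10 fibroblast genes was 1606 to 2167 CPM in knockout hearts and 1230 to 1744 CPM in control hearts. The part of these cell types in the Cxcl12 result was not tested.

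The other chemokines showed no call. Ccl9, a ligand of CCR1, was at 8.81, 4.12 and 6.04 CPM in knockout hearts, against 8.35, 7.67 and 8.01 CPM in control hearts. Knockout replicate 1 was the highest of the 6 libraries and the other knockout libraries were the lowest (log2 fold change -0.34, adjusted p 0.320). Without knockout replicate 1 Ccl9 was called lower (-0.68, adjusted p 0.0206). Cxcl16 averaged 5.02 ± 0.893 CPM in knockout hearts and 4.90 ± 0.995 CPM in control hearts (SD, n = 3 each), with a log2 fold change of 0.06 and a 95% interval of -0.43 to 0.54. Ccl2 and Ccl7, the CCR2 ligands, had log2 fold changes of 0.01 (adjusted p 0.995) and -0.16 (adjusted p 0.815), and Cxcl1, a neutrophil attractant, -0.29 (adjusted p 0.746). Below the filter, Cxcl10, a ligand of CXCR3, had 18 counts in knockout hearts and 6 in control hearts (scaled ratio 1.91, exact 95% interval 0.727 to 5.88). Ccl8 had 11 counts in knockout hearts and 6 in control hearts, and Ccl3 had 5 in knockout hearts and 1 in control hearts.

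Some receptors and ligands of these chemokines, which are not members, did differ. Cx3cl1, the ligand of CX3CR1, was at 7.96, 5.75 and 6.36 CPM in knockout hearts, against 1.58, 3.0 and 2.09 CPM in control hearts. It rose, as did its receptor, and its log2 difference was 1.62 (SE 0.26, adjusted p 1.18e-03). Of 27 chemokines that are not members, 7 were tested. Cx3cl1 was the 1 that rose, and Ppbp, a chemokine of platelets, fell (log2 fold change -2.43, adjusted p 6.87e-03). The log2 fold change of Ppbp was -3.20 without knockout replicate 1. The number that rose was 2 without knockout replicate 3, and the number that fell was 2 without any one library other than control replicate 1. Ackr3, the scavenging receptor for CXCL12, was at 19.7, 14.7 and 11.03 CPM in knockout hearts, against 39.9, 34.1 and 39.3 CPM in control hearts. Like its ligand it was lower in every knockout library than in any control library, at -1.31 on the log2 scale (SE 0.19, adjusted p 6.36e-04). Cxcr4, the signalling receptor of CXCL12, was at 3.33 ± 1.29 CPM in knockout hearts and 1.96 ± 0.615 CPM in control hearts (SD, n = 3 each) and was not called (log2 fold change 0.81, adjusted p 0.0974). Without knockout replicate 3 Cxcr4 was called higher (1.08, adjusted p 0.0185).

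Cxcr6, the receptor of CXCL16, had 72, 28 and 13 counts in knockout hearts, against 2, 0 and 1 in control hearts. The sums of 113 and 3 counts give a scaled ratio of 24.0 (exact 95% interval 8.01 to 118, counting error only), and Cxcr6 was called higher (adjusted p 2.22e-03). Its fitted log2 fold change, which at so few control reads depends on the prior count, was 4.40 over all libraries, 3.68 without knockout replicate 1 and 5.08 without control replicate 1, called each time. Cxcr6 overlaps Fyco1, which is on the opposite strand and fell (log2 fold change -1.61, adjusted p 5.68e-05). Ccr1 averaged 2.45 ± 0.975 CPM in knockout hearts and 0.857 ± 0.0927 CPM in control hearts (SD, n = 3 each; log2 fold change 1.55, adjusted p 9.67e-03). Cxcr4 and Ccr1 are named as receptors of member chemokines and were chosen after their values were seen. Of the 20 chemokine receptors other than Ccr2 and Cx3cr1, 8 were tested, 2 rose and 2 fell, and 4 rose without knockout replicate 3. The second that fell was Ccrl2, an atypical receptor that binds chemerin (log2 fold change -1.59, adjusted p 1.14e-03).

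**Figure D3:**
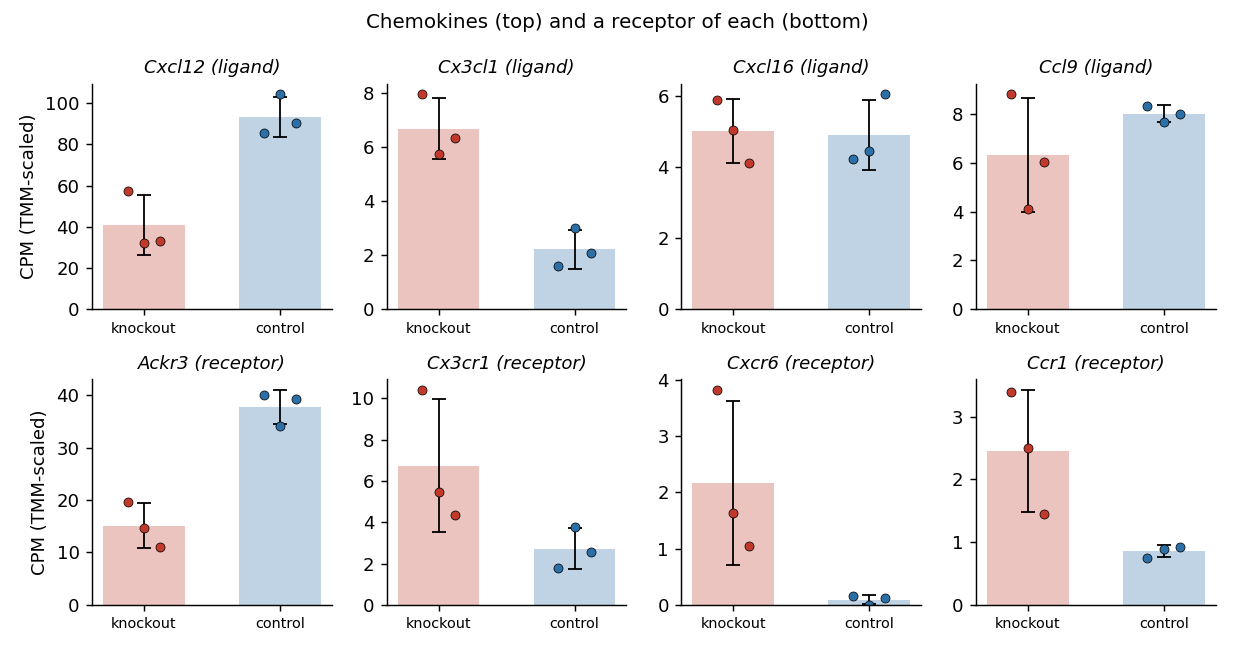
TMM-scaled CPM of 4 chemokines (top panels) and below each a receptor it acts on (points are libraries, bars means, lines SD, n = 3 per group, each panel with its own axis from 0). Cxcl12 and Ackr3 were both lower in knockout hearts, Cx3cl1 and Cx3cr1 both higher, and Cxcl16 and Ccl9 overlapped between groups while Cxcr6 and Ccr1 were higher.

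Further genes of macrophages came from a list of 30 that are not members. Of 28 tested, 3 rose and 2 fell, with a median log2 fold change of 0.05. Without knockout replicate 1 the number that fell was 6, and it was 1 without knockout replicate 2, knockout replicate 3, control replicate 1 or control replicate 3. Gpnmb, a transmembrane glycoprotein of macrophages and other cells, averaged 8.40 ± 2.14 CPM in knockout hearts and 1.07 ± 0.147 CPM in control hearts (SD, n = 3 each; log2 fold change 2.97, adjusted p 4.91e-05). Ctss, the lysosomal protease cathepsin S, was at 15.5 ± 4.18 CPM in knockout hearts and 8.18 ± 1.48 CPM in control hearts (SD, n = 3 each; log2 fold change 0.93, adjusted p 7.60e-03).

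Of 16 macrophage growth factors and inflammatory cytokines, 5 were tested, 1 rose and 1 fell. Mif, the macrophage migration inhibitory factor, averaged 35.6 ± 6.29 CPM in knockout hearts and 17.2 ± 1.41 CPM in control hearts (SD, n = 3 each; log2 fold change 1.05, adjusted p 6.22e-04). Csf1, the ligand of Csf1r, was at 25.7, 18.2 and 17.7 CPM in knockout hearts, against 26.1, 33.1 and 33.7 CPM in control hearts. Its log2 fold change was -0.58 (adjusted p 0.0232) and 0.13 with library size alone. The call was lost without knockout replicate 2, knockout replicate 3, control replicate 2 or control replicate 3, with adjusted p between 0.0704 and 0.101. Without control replicate 1 the list had 2 genes that fell. Among 12 leukocyte adhesion molecules, Vcam1, an endothelial ligand of leukocyte integrins, was the 1 called of 9 tested (log2 fold change 0.79, adjusted p 1.81e-03), and without knockout replicate 1 a further gene was called lower.

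Of 7 genes for receptors of osteopontin and partners of galectin-3, all tested, 4 rose and 1 fell. Cd44, a receptor of osteopontin and hyaluronan, was at 66.7, 44.0 and 39.5 CPM in knockout hearts, against 17.6, 17.3 and 17.7 CPM in control hearts (log2 fold change 1.52, adjusted p 2.89e-04). Itgb5, an integrin chain, averaged 90.1 ± 5.82 CPM in knockout hearts and 43.1 ± 3.03 CPM in control hearts (SD, n = 3 each; log2 fold change 1.06, adjusted p 1.26e-04). Without any one of the control libraries, 2 of these genes rose in place of 4. The number that fell was 2 without knockout replicate 1, 1 without control replicate 1, and 0 without any other single library.

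Per length, the members spanned more than 3 orders of magnitude. Mean levels, as CPM per kilobase of exon, were 54.1 in knockout hearts and 37.8 in control hearts for Lyz2, the highest, and 22.1 in knockout hearts and 21.5 in control hearts for C1qa, the next. Lgals3 ranked 4 of 41 in knockout hearts, at 15.2, against rank 16 in control hearts, at 1.98. Cxcl12 ranked 10 in knockout hearts, at 4.99, against rank 4 in control hearts, at 11.4. Cx3cr1 ranked 18 in knockout hearts, at 1.495, against rank 24 in control hearts, at 0.602. C1qa and C1qb, neighbours in the order in both groups, had ranges over libraries that overlapped, as did Csf1r and Tyrobp. Cd3e was the lowest in knockout hearts at 0.0152, against 0.0186 in control hearts.

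**Figure D4:**
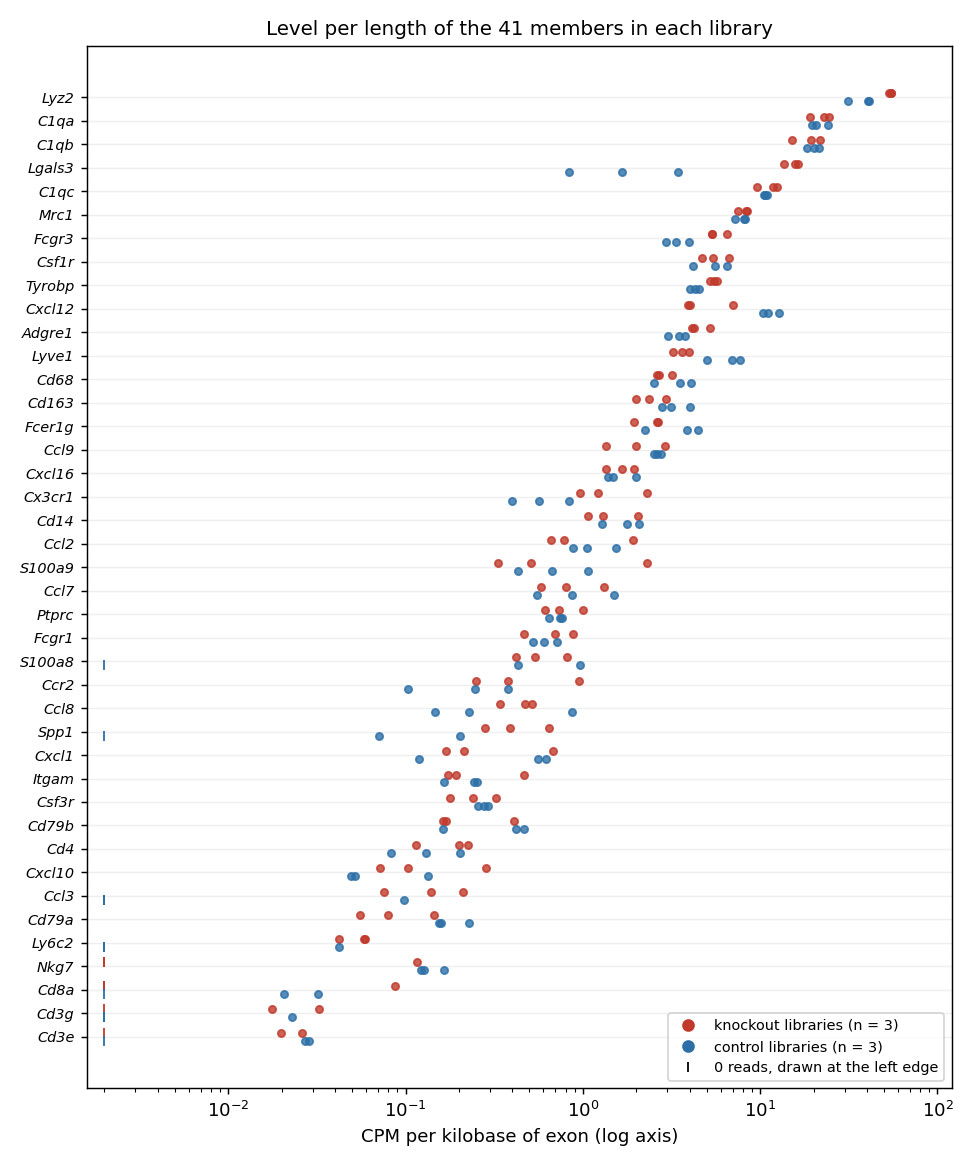
Level per length of each of the 41 members in each library, as CPM per kilobase of exon on a log axis, in the order of the knockout means, with libraries at 0 reads drawn as ticks at the left edge. Lyz2 and the C1q genes are at the top and the T-cell genes at the bottom, and the groups do not overlap at Lgals3 or Cxcl12.

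Set against Csf1r in the same library, 3 more called members stood apart between the groups and 2 overlapped. Cx3cr1 counts relative to Csf1r were 0.202 ± 0.0606 in knockout hearts and 0.0848 ± 0.0137 in control hearts, and Fcgr3 counts were 0.312 ± 0.0273 in knockout hearts and 0.194 ± 0.0412 in control hearts (SD, n = 3 each). For both genes every knockout library was above every control library. Lyz2 counts relative to Csf1r overlapped between groups, at 2.25 ± 0.344 in knockout hearts and 1.65 ± 0.499 in control hearts (SD, n = 3 each). Those of Cxcl12 did not, at 1.24 ± 0.237 in knockout hearts and 3.03 ± 0.423 in control hearts (SD, n = 3 each). Lyve1 counts relative to Csf1r overlapped, at 0.336 ± 0.0890 in knockout hearts and 0.642 ± 0.229 in control hearts (SD, n = 3 each).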

How the data were processed

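Total RNA of 6 whole mouse hearts was sequenced, 3 knockout and 3 control, with groups and replicate numbers taken from the sample titles. Per the submitters' processing notes, the tools were DESeq2 1.16.1, featureCounts 1.5.1, SAMtools 1.5 and HISAT2 2.0.5 on mm10, with no role or option given. The authors deposited whole-number counts per gene, which were used here without change. They also deposited normalised values, a signal per library that was not used for any level or test here. The authors' deposited table holds log2 fold changes with their errors, a test statistic (a score with no fixed range), p-values and adjusted p-values, and served for gene symbols and as an alternative. No strand setting for the counting is stated in the labels, so reads of overlapping genes on opposite strands cannot be told apart.

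Counts were tested with edgeR 4.0.16 in R 4.3.3 (quasi-likelihood test, TMM scaling, filterByExpr with a minimum count of 10, no block), over all genes, with Benjamini-Hochberg adjustment. Adjusted p-values come from edgeR except where a sentence names another source. The SE is the size of the log2 fold change over the square root of the F statistic. Ratios of low counts carry exact conditional 95% intervals for counting error only, scaled to the effective library sizes. Exon lengths, coordinates and overlaps are from GENCODE M21 (GRCm38, the build of mm10), in which 51682 of 51875 Ensembl identifiers were found. Near-identical transcripts were sought with blastn 2.17.0 at 90% identity over at least 200 bases. RefSeq promoters were matched for 30 of 41 members.

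The members and lists were chosen with earlier results of these data known. Every called member is described in full. Uncalled members are named where they define a role or had at least 1.5-fold estimated change, and up to 3 called genes with the smallest adjusted p are named from each other list. A gene that this rule takes is not reported here. On counts simulated from these 6 libraries (14302 genes, 14005 tested), the test recovered 18% of 50 genes changed 1.5-fold, 72% at 2-fold, 94% at 4-fold and 100% at 8-fold. It called 14 of 13809 unchanged genes. The simulation changed far fewer genes than were called in the data, which makes the adjustment of p-values stricter. The recovered shares therefore do not carry over to the data. Libraries of a group differed by more than sampling noise (chi-square per degree of freedom at least 8.13), so each counted as 1 replicate. An exact permutation test of 3 against 3 cannot go below 0.1 and was not used. The alternatives tried were no filter, RLE scaling, TMM without the 13 mitochondrial features, library size alone, at least 50 counts in 3 libraries, DESeq2 1.42.0, limma-voom (limma 3.58.1), a robust fit, the authors' deposited table, the replicate number as a block, and each library left out in turn. Summing the counts of both Itgam identifiers was added after the data were seen.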

Additional observations from a re-analysis of the deposited data

How the results depend on the processing

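The same 6 members were called with RLE scaling, TMM without mitochondrial features, the filter of 50 counts, DESeq2, limma-voom, the robust fit and the authors' deposited table. With library size alone 8645 genes were called (8093 higher, 552 lower), 16 members were higher and 0 lower, 16 in all, and the median of all genes moved to 0.68, which raises the knockout side as a whole. With no filter 9 members were called, 7 of them higher, with Adgre1, Ccr2 and Spp1 added. With each library left out in turn, 3694 to 5837 genes were called (1899 to 2903 higher, 1795 to 2934 lower), and 5 to 8 members (3 to 5 higher, 2 to 3 lower); the Lgals3 log2 fold change ranged between 2.64 and 3.55. Same-numbered libraries did not deviate together (correlations -0.217, 0.0939 and -0.105), which gave no sign that the numbers pair the mice. With 3 libraries per group this check cannot exclude such a pairing. With the replicate block 4293 genes and 7 members were called, with Ccr2 added (1.08, adjusted p 0.0237).

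Some members that were not called, and of the other genes named here Csf1 and Prox1, changed direction under some settings, and the cause was not tested. With library size alone the log2 fold changes were 0.48 for Cd68, 0.49 for Cd14, 0.26 for Cd163, 0.61 for C1qb, 0.21 for Fcer1g, 0.55 for Csf3r, 0.50 for Ccl7, 0.36 for Ccl9, 0.37 for Cxcl1, 0.13 for Csf1 and 0.012 for Prox1. Ccl2 was at -0.022 in DESeq2, -0.12 in limma-voom and -0.040 with the replicate block. With each library left out in turn, the values went through 0 for 12 members, lying between -0.092 and 0.28 for Ptprc, -0.11 and 0.21 for Csf1r, -0.0072 and 0.094 for Mrc1, -0.025 and 0.15 for C1qa, -0.21 and 0.042 for C1qb, -0.029 and 0.38 for Fcgr1, -0.24 and 0.66 for Itgam, -0.37 and 0.035 for Csf3r, -0.67 and 0.29 for Ccl2, -0.60 and 0.37 for Ccl7, -1.21 and 0.094 for Cxcl1, and -0.071 and 0.23 for Cxcl16. Low counts limit the granulocyte, lymphocyte and most chemokine genes.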

Other observations

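Other cell types of the heart were followed through lists of their markers. The summed level of 10 cardiomyocyte genes was 67295 to 68440 CPM in knockout hearts and 101900 to 103781 CPM in control hearts, and 5 of the 10 fell (2 with library size alone). Of 10 fibroblast genes, 2 rose, Postn (log2 fold change 1.69, adjusted p 1.83e-03) and Mgp (0.93, adjusted p 7.23e-04), while 4 rose without knockout replicate 1 and 8 with library size alone. Postn, which encodes the matrix protein periostin, was at 422, 274 and 153 CPM in knockout hearts, against 85.5, 86.8 and 90.3 CPM in control hearts. Knockout replicate 1 was the highest library for Postn, as it was for Cx3cr1 and Ccr2. The sum of 7 erythroid genes was 1440 to 2942 CPM in knockout hearts and 522 to 1795 CPM in control hearts, with 1 of 7 called higher. That 1 call was lost without knockout replicate 2, knockout replicate 3, control replicate 1 or control replicate 2, and without control replicate 3 there were 2. The sum of 6 platelet genes was 4.59 to 6.92 CPM in knockout hearts and 10.2 to 14.4 CPM in control hearts. The sum of 6 adipocyte genes was 3.13, 6.21 and 72.7 CPM in knockout hearts, against 33.2, 8.56 and 7.09 CPM in control hearts, with 1 library high in each group.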
